A study of Mus musculus with 3 samples.

Results

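The genes described here are 6 enzymes and transporters that decide what a myeloid cell makes from arginine and from a Krebs cycle intermediate: Slc7a2, Ass1, Nos2, Arg1, Arg2 and Acod1. They were taken by symbol from the 31053 genes of the count matrices, and all 6 were found. The data are 3 droplet single-cell libraries of digested mouse blood (strain C57BL/6J), 1 library a group, and every label gives 12 h. The Sham group is labelled with no agent, the CLP group was treated with CMC and had CLP, and the HDCA+CLP group was treated with HDCA and had CLP. The labels leave these abbreviations unexpanded. CLP is taken to be caecal ligation and puncture, an operation used to model abdominal sepsis, CMC carboxymethylcellulose, a common vehicle, and HDCA hyodeoxycholic acid, a bile acid. Because no CMC is named for Sham, CMC and surgery cannot be told apart in CLP against Sham. How many animals gave blood to each library is not stated. With 1 library for each group there was no replicate check and no test, and every interval is a 95% interval that covers counting error only, treating UMIs (unique molecular identifiers, which count captured RNA molecules) as independent.

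Macrophages and neutrophils exposed to bacterial products can switch on the inducible nitric oxide synthase Nos2, which turns arginine into nitric oxide and citrulline. Arginase 1 (Arg1, cytosolic) and arginase 2 (Arg2, mitochondrial) split the same arginine into ornithine and urea, so they draw on the substrate of Nos2. The cationic amino acid transporter Slc7a2 brings arginine in, and argininosuccinate synthase Ass1 starts the route that rebuilds arginine from citrulline. Acod1 makes itaconate from the Krebs cycle intermediate cis-aconitate, and itaconate acts on inflammatory signalling and on some bacteria.

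Promoter sequence from RefSeq (GRCm38.p6) was held for 2 of the 6 genes, Acod1 and Ass1, and is shown because they gave the most UMIs of the 6 in monocytes of CLP and HDCA+CLP. Each run is the 250 bases before the gene start, 5′ to 3′ on the strand of the gene, and capitals mark matches to the motifs searched. Acod1 lies at chr14:103046762-103047011 (plus strand) and Ass1 at chr2:31470020-31470269 (plus strand).
Acod1: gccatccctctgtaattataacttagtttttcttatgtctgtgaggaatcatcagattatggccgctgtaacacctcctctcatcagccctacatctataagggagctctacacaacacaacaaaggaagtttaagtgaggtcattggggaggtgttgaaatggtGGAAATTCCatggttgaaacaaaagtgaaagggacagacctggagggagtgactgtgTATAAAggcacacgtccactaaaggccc
Ass1: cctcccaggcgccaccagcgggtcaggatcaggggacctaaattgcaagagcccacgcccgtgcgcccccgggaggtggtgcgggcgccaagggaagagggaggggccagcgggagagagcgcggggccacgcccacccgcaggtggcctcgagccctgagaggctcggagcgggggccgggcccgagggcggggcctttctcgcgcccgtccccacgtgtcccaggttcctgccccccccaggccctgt
The Acod1 run had a GC content of 44.4% and 2 CpG dinucleotides, and the Ass1 run had 75.6% and 23, against a median GC content of 52.4% over 32851 promoters of the same length. The 6 motifs, searched on both strands, were GGNNNTTCC (NF-kappaB), GAAA repeated after any 2 bases (interferon-stimulated response element), TTCNNNGAA (gamma-activated sequence), TGANTCA (AP-1), TTGCNNAA (C/EBP) and the core promoter box TATAAA. Acod1 held GGAAATTCC from base 85 to base 77 before the start, which reads as a match on both strands, and TATAAA from base 28 to base 23. Across all promoters 15.7% held GGNNNTTCC and 12.4% held TATAAA. The other 4 motifs, held by 2.98%, 7.02%, 6.75% and 9.56% of promoters in the order given, were not found in either run, and Ass1 held none of the 6. A match describes letters and not a bound site.

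Cells were sorted into classes by their own UMIs. Neutrophils were cells with at least 5% of UMIs from S100a8 and S100a9, abundant neutrophil transcripts. They were split by the share of UMIs from Camp, Ltf and Ngp, secondary granule genes of younger neutrophils, into granule-high (at least 5%), granule-intermediate (1 to 5%) and granule-low (under 1%) cells. Monocytes were cells below the S100 limit with at least 3 UMIs of Csf1r, Ms4a6c and F13a1. Sham held 230 neutrophils, CLP 4568 and HDCA+CLP 8381, which was 3.54%, 46.4% and 77.3% of the kept cells, although the samples are labelled mononuclear cells. In Sham 210 of the 230 were granule-low (91.3%), 12 granule-high and 8 granule-intermediate. CLP held 1630, 2460 and 478 high, intermediate and low cells and HDCA+CLP 2926, 3941 and 1514, so granule-low cells were 10.5% and 18.1% of neutrophils. Monocytes numbered 281, 718 and 282 in Sham, CLP and HDCA+CLP.

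Markers that the class limits did not use were set side by side in both classes. The neutrophil gene Retnlg was at 16642, 13084 and 12955 CPM (UMIs per 1000000 UMIs of a class) in neutrophils of Sham, CLP and HDCA+CLP and at 3.998, 50.5 and 113 CPM in monocytes. Ccr2, the chemokine receptor of classical monocytes, was at 921, 366 and 315 CPM in monocytes and at 29.2, 3.82 and 5.32 CPM in neutrophils. The classes are ranges and not sharp types. In CLP 638 cells lay at 4 to 5% and 581 at 5 to 6% of granule UMIs, and in HDCA+CLP 1153 and 1065. Median UMIs per cell were 4267, 8502 and 7975 in neutrophils, 4168, 4852 and 4849 in granule-low neutrophils, and 10592, 14195 and 13265 in monocytes of Sham, CLP and HDCA+CLP. Because depth differed, shares of cells with a UMI are also given after each cell was thinned to 2000 UMIs, and T cells, which should lack Nos2, Arg1, Arg2 and Acod1, give the level that free RNA can reach. T cells had medians of 6684, 4823 and 4171 UMIs. Pairs of libraries shared 14 to 23 cell barcodes. Levels in CPM are a share of captured RNA, so they are compared within a gene and not between genes, and fewer cells of a state cannot be told apart from less RNA per cell except where shares of cells are given.

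**Figure D1:**
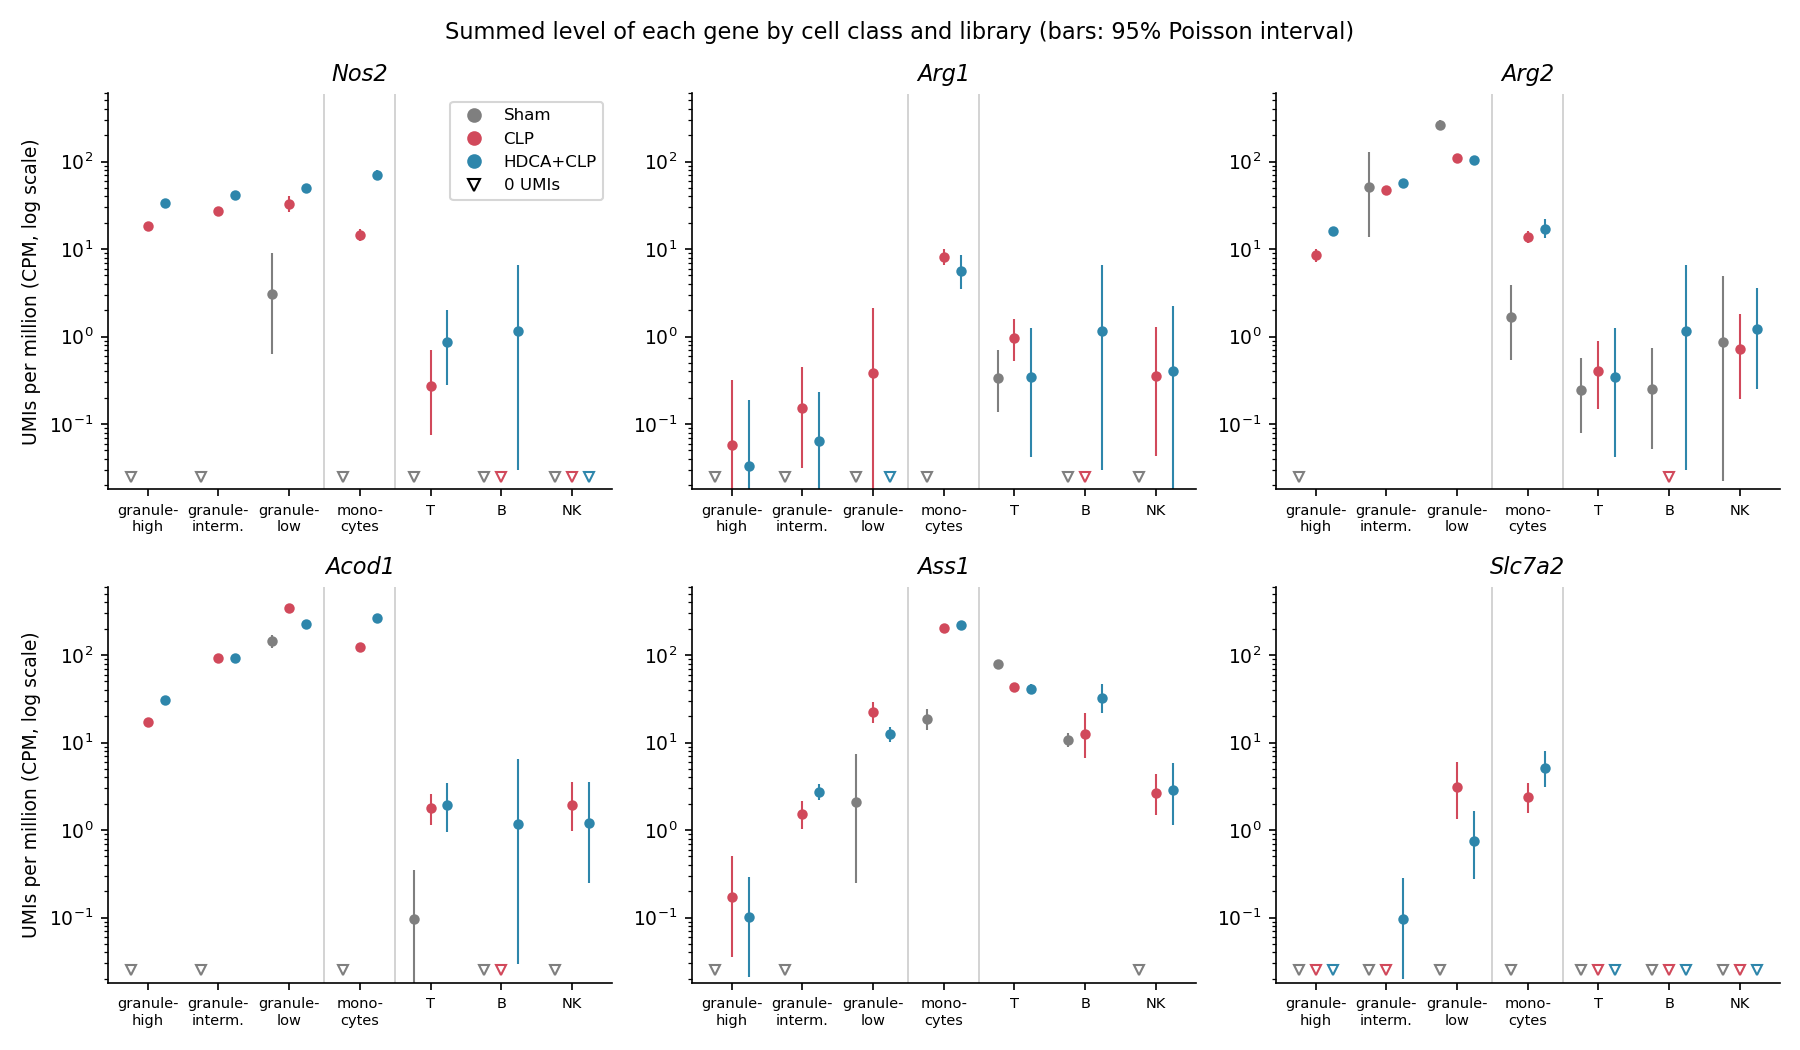
Level of each gene (CPM, log scale, 95% counting intervals) in granule-high, granule-intermediate and granule-low neutrophils, monocytes, T, B and NK cells of the Sham, CLP and HDCA+CLP libraries, with open triangles at the foot of a panel for 0 UMIs. Nos2 reached 71.0 CPM in HDCA+CLP monocytes against 14.4 in CLP monocytes, and Arg2 was 265 CPM in granule-low Sham neutrophils against 1.67 in Sham monocytes.

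Slc7a2, the arginine transporter, was scarce. No UMI was found in any Sham class, nor in T, B or NK cells of any library. CLP monocytes held 26 UMIs in 11 cells, 14 of them in 1 cell (2.37 CPM), and HDCA+CLP monocytes held 20 UMIs in 10 cells (5.13 CPM). The log2 ratio of HDCA+CLP to CLP was 1.11 (0.19 to 2.01). Neutrophils held 8 UMIs in 1 CLP cell and 9 UMIs in 3 HDCA+CLP cells. Slc7a2 RNA was therefore seen in few single cells of these libraries, and its ratios rest on those cells.

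Ass1, which rebuilds arginine from citrulline, showed a different class in Sham from that in the CLP libraries. In Sham T cells held 86.2% of its UMIs, at 78.3 CPM (74.5 to 82.2) with a UMI in 33.2% of cells. Sham monocytes stood at 18.7 CPM (14.1 to 24.2), with 56 UMIs in 13.5% of cells. In CLP monocytes the level was 203 CPM (195 to 212) with a UMI in 81.3% of cells, and in HDCA+CLP monocytes 220 CPM (206 to 235) and 84.4%. Monocytes then held 73.1% and 63.7% of the Ass1 UMIs of their libraries. The log2 ratio of CLP to Sham in monocytes was 3.44 (3.06 to 3.85), 10.9-fold, and that of HDCA+CLP to CLP was 0.12 (0.00 to 0.23). Thinned to equal depth, an Ass1 UMI was found in 1.78% of Sham monocytes, 29.8% of CLP monocytes and 37.1% of HDCA+CLP monocytes, so the order of the groups was the same at equal depth.

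T cells went the other way. Their Ass1 level, 78.3 CPM in Sham, stood at 43.3 in CLP and at 41.0 in HDCA+CLP, a log2 ratio of CLP to Sham of -0.85 (-0.99 to -0.72) and of HDCA+CLP to CLP of -0.08 (-0.30 to 0.14). The thinned shares were 12.6%, 7.26% and 6.74%. NK cells stood at 0, 2.67 and 2.84 CPM in Sham, CLP and HDCA+CLP, and B cells at 10.8, 12.6 and 32.7, where 14 of the 28 HDCA+CLP UMIs came from 1 cell. Neutrophils were low, at 1.67, 2.29 and 2.72 CPM. Granule-low neutrophils held 22.3 CPM in CLP and 12.4 in HDCA+CLP against 2.07 in Sham. That difference turned with the cells that carried monocyte markers: without the 8, 21 and 51 granule-low cells that held 3 or more monocyte marker UMIs, the log2 ratio of CLP to Sham was -0.58 (-2.20 to 0.65) in place of 3.43. Among CLP monocytes the Ass1 level was 201 CPM in the 629 cells with more classical than non-classical marker UMIs and 240 in the 73 with more non-classical ones, and in Sham 20.7 and 14.2, so both kinds of monocyte carried the difference.

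Nos2, the inducible nitric oxide synthase, was nearly absent from Sham blood. The Sham library held 3 Nos2 UMIs, all in granule-low neutrophils (2.51 CPM over all neutrophils, 0.517 to 7.32). CLP neutrophils had 948 UMIs and 23.9 CPM (22.4 to 25.4), with a UMI in 648 cells (14.2%). HDCA+CLP neutrophils had 2684 UMIs and 39.0 CPM (37.5 to 40.5), with a UMI in 1610 cells (19.2%). The log2 ratio of CLP to Sham was 3.25 (1.70 to 5.53), and that of HDCA+CLP to CLP 0.71 (0.60 to 0.82), 1.64-fold. The higher level in HDCA+CLP was present in each granule class: 33.8 against 18.3 CPM in granule-high cells (log2 ratio 0.89, 0.70 to 1.07), 41.1 against 27.6 in granule-intermediate cells (0.58, 0.43 to 0.72) and 50.5 against 33.1 in granule-low cells (0.61, 0.27 to 0.96). The thinned shares in CLP and HDCA+CLP were 4.19% and 5.40% of granule-high, 5.16% and 6.68% of granule-intermediate and 6.05% and 7.03% of granule-low cells, with 0.49% of granule-low cells in Sham. At this equal depth HDCA+CLP was 1.29-fold, 1.30-fold and 1.16-fold above CLP in the same order. The intervals of the shares in CLP and HDCA+CLP overlapped in each class. Removed doublets had held 25.2% of the Nos2 UMIs of CLP and 12.8% of those of HDCA+CLP, and with them kept the ratio was 0.57.

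Monocytes showed the larger difference in Nos2. No UMI was found in 281 Sham monocytes, which at a floor of 3 counts allows a share of cells with a UMI of up to 1.07% and sets no limit on cells that express the gene. CLP monocytes held 158 UMIs in 72 of 718 cells (10.0%), a level of 14.4 CPM (12.3 to 16.8). HDCA+CLP monocytes held 277 UMIs in 45 of 282 cells (15.96%), a level of 71.0 CPM (62.9 to 79.9). The log2 ratio of HDCA+CLP to CLP was 2.30 (2.01 to 2.59), 4.93-fold, and CLP was 14.4-fold above the floor of 3 counts in Sham. The share of positive cells differed less than the level did. A positive cell held 2.19 UMIs on average in CLP and 6.16 in HDCA+CLP, and 2 CLP cells against 12 HDCA+CLP cells held 10 or more. In the thinned cells the shares were 2.82% and 6.79%, against 0.0752% and 0.256% of T cells in the same libraries.

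The order of the classes for Nos2 also differed between the libraries. In CLP the granule-low (33.1 CPM) and granule-intermediate neutrophils (27.6) were highest, with intervals that overlapped, then granule-high neutrophils (18.3) and monocytes (14.4), whose intervals also overlapped. In HDCA+CLP monocytes (71.0) stood above granule-low neutrophils (50.5), followed by granule-intermediate (41.1) and granule-high cells (33.8), and none of these intervals overlapped. T cells were at 0.273 and 0.869 CPM. All 158 CLP monocyte UMIs came from cells with more classical than non-classical monocyte markers. With the 5 cells richest in Nos2 left out of each library the monocyte ratio was 2.24, and without the 53 and 53 monocytes that held 3 or more neutrophil marker UMIs it was 2.19.

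**Figure D2:**
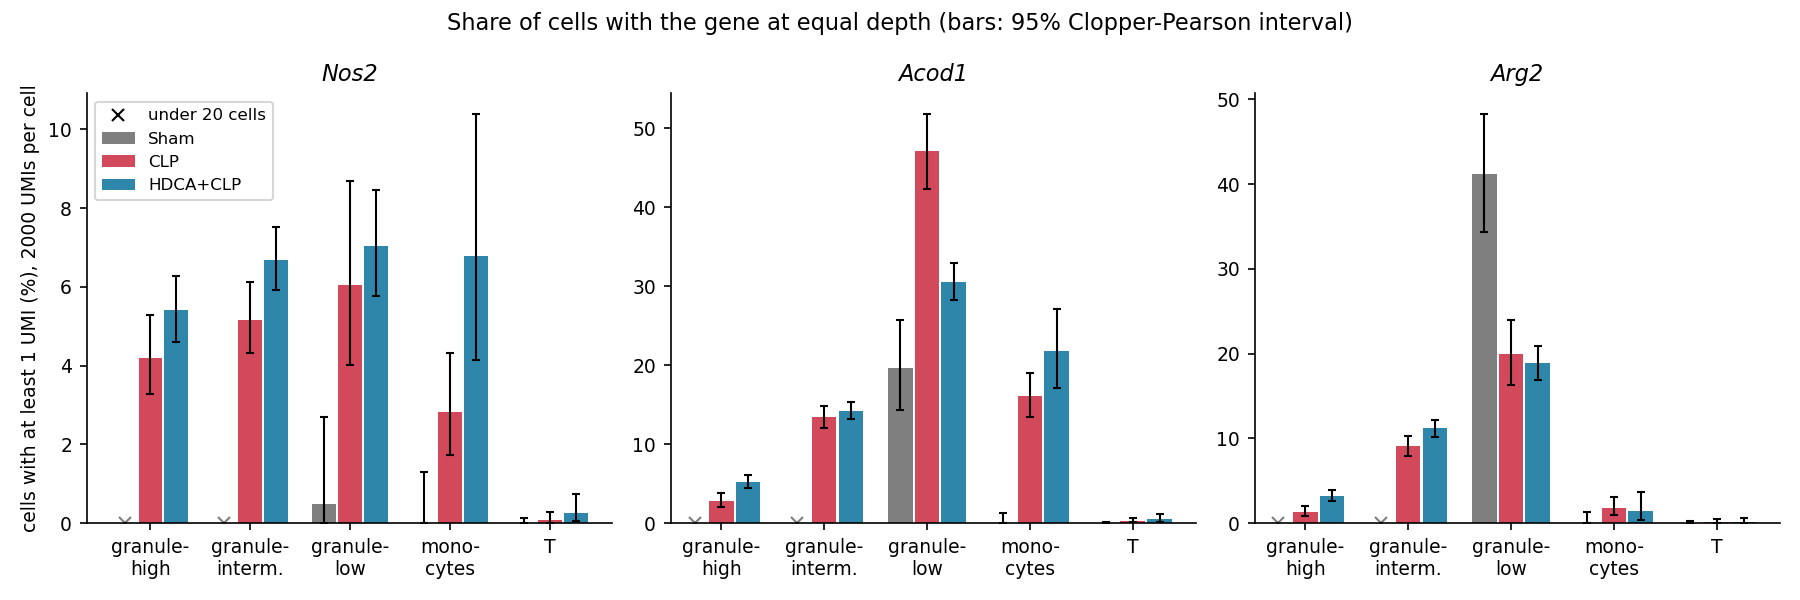
Share of cells (%, 95% exact binomial intervals) with at least 1 UMI of Nos2, Acod1 and Arg2 after thinning every cell to 2000 UMIs, in the 3 granule classes of neutrophils, monocytes and T cells of each library, with a cross for classes under 20 cells. Nos2 was found in 2.82% of CLP and 6.79% of HDCA+CLP monocytes, and Acod1 in 47.1% of CLP and 30.6% of HDCA+CLP granule-low neutrophils.

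Arg1, arginase 1, was almost absent from circulating cells. Neutrophils held 0, 5 and 3 UMIs in Sham, CLP and HDCA+CLP, each in a cell of its own. CLP monocytes held 90 UMIs in 25 of 718 cells (8.21 CPM), and the 5 richest cells held 64.4% of them. HDCA+CLP monocytes held 22 UMIs in 8 of 282 cells (5.64 CPM), 11 of them in 1 cell. Sham monocytes held none, which sets CLP 8.21-fold above the floor of 3 counts. The log2 ratio of HDCA+CLP to CLP was -0.54 (-1.28 to 0.14).

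The comparison of Arg1 with Sham turned on 1 cell. The doublet filter had taken out a Sham cell with 130 of the 137 Arg1 UMIs of that library (94.9%), 8042 UMIs and 2577 genes. It held 85 UMIs of Fn1, 49 of Mrc1, 23 of Pf4, 11 of Ccr2 and 7 of C1qa, listed as macrophage and monocyte genes except for Pf4, a listed platelet marker. Of the 6 platelet markers only Pf4 was found. The cell also held 1 UMI of the B cell gene Cd79a and none of the neutrophil, T cell or NK cell markers. With the removed cells kept, the log2 ratio of CLP to Sham in monocytes was -2.27 (-2.67 to -1.87). In CLP 40 of the 90 UMIs came from 131 monocytes with 3 or more UMIs of C1qa, C1qb and C1qc, complement genes of tissue macrophages, and in HDCA+CLP none of the 22 came from the 27 such cells.

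Arg2, the mitochondrial arginase, was high in Sham neutrophils and lower in those of both CLP libraries. Sham neutrophils held 260 UMIs and 217 CPM (192 to 245), with a UMI in 63.0% of cells. CLP neutrophils stood at 34.0 CPM (20.6% of cells) and HDCA+CLP neutrophils at 45.0 CPM (25.9%). The log2 ratio of CLP to Sham was -2.67 (-2.87 to -2.48). Arg2 was lowest in granule-high cells, which were 5.22% of neutrophils in Sham and 35.7% in CLP. With the granule classes of each library weighted as in CLP the Arg2 levels were 42.6, 34.0 and 42.3 CPM, a log2 ratio of CLP to Sham of -0.32. The Sham value rests on 12 granule-high and 8 granule-intermediate cells. Those granule-high cells held no Arg2 UMI and entered as 0, not at the floor of 3 counts. Granule-intermediate cells alone stood at 50.9 CPM in Sham (4 UMIs) and 46.9 in CLP (log2 ratio -0.12, -1.48 to 1.76). Within granule-low cells the level was 265 CPM (234 to 300) in Sham, 109 (96.2 to 122) in CLP and 104 (97.4 to 112) in HDCA+CLP, and the log2 ratio of CLP to Sham was -1.29 (-1.54 to -1.04). The thinned shares of granule-low cells with Arg2 were 41.2%, 19.96% and 18.8%.

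HDCA+CLP and CLP granule-low cells did not differ in Arg2 beyond counting error (log2 ratio -0.06, -0.25 to 0.14). Granule-high cells did, at 16.03 against 8.48 CPM (0.92, 0.65 to 1.19), as did granule-intermediate cells at 57.4 against 46.9 CPM (0.29, 0.18 to 0.41). Monocytes ran opposite to neutrophils in CLP against Sham. They held 5 UMIs in Sham (1.67 CPM), 151 in CLP (13.8 CPM) and 67 in HDCA+CLP (17.2 CPM), a log2 ratio of CLP to Sham of 3.05 (1.79 to 4.69) and of HDCA+CLP to CLP of 0.32 (-0.12 to 0.74). T cells stood at 0.243, 0.409 and 0.348 CPM. In Sham the Arg2 level was 130-fold lower in monocytes than in neutrophils.

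Acod1, the itaconate synthase, was present in Sham neutrophils and absent from Sham monocytes. Sham neutrophils held 140 UMIs, all in granule-low cells, and 117 CPM (98.4 to 138). CLP neutrophils stood at 75.2 CPM and HDCA+CLP neutrophils at 81.1 CPM, so over all neutrophils the level was lower in CLP (log2 ratio -0.64, -0.88 to -0.38). Within granule-low cells it was higher: 145 CPM in Sham (122 to 171), 342 in CLP (320 to 365) and 228 in HDCA+CLP (217 to 238), a log2 ratio of CLP to Sham of 1.24 (0.98 to 1.505), 2.36-fold. The shares in thinned granule-low cells were 19.6%, 47.1% and 30.6%. The direction over all neutrophils and that within granule-low neutrophils therefore differed. With the granule classes of each library weighted as in CLP the levels were 9.48, 75.2 and 73.9 CPM, where the Sham value rests on 12 granule-high and 8 granule-intermediate cells without an Acod1 UMI.

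HDCA+CLP against CLP differed by granule class for Acod1. Granule-high cells stood at 30.4 against 17.2 CPM (log2 ratio 0.82), granule-intermediate cells at 92.1 against 91.5 (0.01, -0.08 to 0.10), and granule-low cells at 228 against 342 (-0.59, -0.70 to -0.47). Monocytes held no Acod1 UMI in Sham, 1366 in 299 CLP cells (41.6%, 125 CPM) and 1028 in 120 HDCA+CLP cells (42.6%, 264 CPM). CLP was 125-fold above the floor of 3 counts in Sham, and the log2 ratio of HDCA+CLP to CLP was 1.08 (0.96 to 1.199), 2.12-fold. The share of positive monocytes was nearly equal in both, and the UMIs in a positive cell were 4.57 on average in CLP and 8.57 in HDCA+CLP. The thinned shares were 16.1% and 21.8%, against 0.301% and 0.512% of T cells. In CLP the level was 120 CPM in monocytes with more classical markers and 211 CPM (132 UMIs in 28 of 73 cells) in those with more non-classical markers, and without the 88 and 40 monocytes with 10 or more UMIs of early myeloid genes the ratio of HDCA+CLP to CLP was 0.79.

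**Figure D3:**
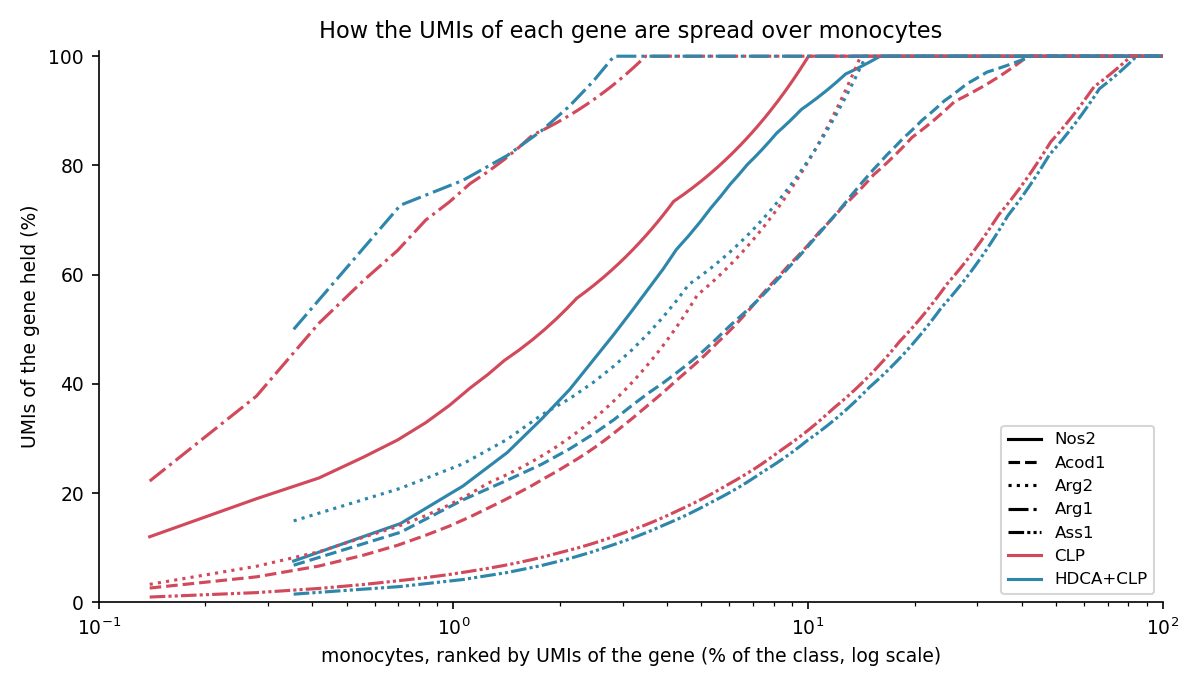
Share of a gene's monocyte UMIs (%) held by the cells richest in it, against the share of monocytes counted (%, log scale), as 1 line for each of Nos2, Acod1, Arg2, Arg1 and Ass1 in CLP and in HDCA+CLP. The richest 1% of monocytes held 36.1% of CLP and 21.3% of HDCA+CLP Nos2 UMIs, against 5.12% and 4.20% for Ass1.

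Levels were spread unevenly over monocytes, and by gene. The richest 1% of monocytes held 73.3% of Arg1 UMIs in CLP and 77.3% in HDCA+CLP, 36.1% and 21.3% of Nos2 UMIs, 17.9% and 25.4% of Arg2 UMIs, and 14.0% and 18.8% of Acod1 UMIs. By this share Ass1 was the most even of the 5, with 5.12% and 4.20%. A UMI of Nos2 or Acod1 was thus detected in a minority of monocytes and 1 of Ass1 in most. This share also rises as the UMIs of a gene become fewer. CLP monocytes held 90 UMIs of Arg1, 151 of Arg2, 158 of Nos2, 1366 of Acod1 and 2226 of Ass1. The part of these counts in the order of the genes was not tested.

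Within CLP and HDCA+CLP, the granule classes of neutrophils formed a gradient in CPM for Acod1, Arg2, Nos2 and Ass1. For Nos2 in CLP the step from granule-intermediate to granule-low cells lay within counting error (log2 ratio 0.26, -0.08 to 0.59). Granule-low cells of CLP exceeded granule-high cells 19.8-fold in Acod1 (log2 ratio 4.31), 12.8-fold in Arg2 (3.68) and less in Nos2 (0.86). In HDCA+CLP the same ratios were 7.48-fold (2.90), 6.51-fold (2.70) and 0.58. The granule-intermediate cells lay between, at log2 ratios over granule-high cells of 2.41 for Acod1, 2.47 for Arg2 and 0.59 for Nos2 in CLP. In CPM Acod1 and Arg2 thus differed several-fold along this axis and Nos2 less than 2-fold. Median UMIs per cell were 4852 in granule-low and 10731 in granule-high cells of CLP, and 4849 and 10040 in HDCA+CLP. A higher share of UMIs in granule-low cells is therefore not the same as more UMIs of the gene per cell. In CLP 86 Nos2 UMIs lay in 478 granule-low cells and 319 in 1630 granule-high cells. In HDCA+CLP 403 lay in 1514 and 1005 in 2926. Per cell Nos2 was thus lower in granule-low than in granule-high cells of both libraries, while Acod1 and Arg2 stayed higher. Ass1 stood at 22.3, 1.52 and 0.172 CPM in granule-low, granule-intermediate and granule-high cells of CLP. In HDCA+CLP it stood at 12.4, 2.74 and 0.101 CPM. Granule-high cells held 3 Ass1 UMIs in each library, and the granule-low level includes the cells with monocyte markers described above. The difference between these gradients was not tested.

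Member counts were set beside those of all genes measured in the same cells. A gene counted as measured with at least 20 UMIs over both libraries and as different past 2-fold. In monocytes 6 of 6 members were higher in CLP than in Sham, where 10.3% of 10297 genes were 2-fold higher and 17.2% lower, and the median log2 ratio was 3.25 against -0.21 over all genes. Of these, 4 (Nos2, Arg1, Acod1 and Slc7a2) were at 0 in Sham and counted against the floor, and 2 rest on few cells: Arg1 turned with the removed doublets kept (-2.27), and Slc7a2 without its 5 richest cells (-0.88). In HDCA+CLP against CLP 3 of 6 (Nos2, Acod1 and Slc7a2) were 2-fold higher in monocytes and none lower, where 2.12% of 10231 genes were higher and 2.6% lower, with medians of 0.70 and 0.05. Acod1 was under 2-fold there without the 5 richest cells (0.85), without early myeloid cells (0.79) and with means over cells (0.93), and Slc7a2 rests on 20 and 26 UMIs (interval 0.19 to 2.01). In neutrophils 4 members were measured. For CLP against Sham 1 was higher (Nos2) and 1 lower (Arg2), where 11.9% and 22.1% of genes were. The granule classes were also weighted as in CLP, an alternative chosen after seeing the data. The log2 ratios were then 6.88 for Nos2, 2.99 for Acod1, 4.08 for Ass1 and -0.32 for Arg2. The Sham side rests on 12 granule-high and 8 granule-intermediate cells, whose counts of 0 entered as 0 and not at the floor. Against the floor, CLP was at 0.93-fold in granule-high and 0.72-fold in granule-intermediate cells for Nos2, and at 0.88-fold and 2.39-fold for Acod1. Ass1 was at 0.04-fold in granule-intermediate cells. The ratios of Nos2, Acod1 and Ass1 therefore depend on how these zeros were set, and are not counted as past 2-fold. For HDCA+CLP against CLP none of the 4 passed 2-fold in either direction, where 2.09% and 1.41% did. In granule-low cells 3 of 4 (Nos2, Acod1 and Ass1) were higher in CLP than in Sham and 1 (Arg2) lower, where 20.5% and 13.2% of genes were, Ass1 turning without the cells with monocyte markers as given above, and none of 4 passed 2-fold between HDCA+CLP and CLP, where 2.46% and 3.63% did. The other granule classes had none past 2-fold in that comparison (0 of 4 granule-intermediate, where 1.72% of genes were higher and 1.67% lower, and 0 of 3 granule-high, where 1.85% and 1.82% were). For HDCA+CLP against Sham 6 of 6 members were higher in monocytes, where 9.3% of genes were higher and 15.0% lower, and Arg1 turned to -2.64 with the removed doublets kept. In neutrophils 1 was higher and 1 lower, where 10.2% and 24% were. In granule-low cells 2 of 4 were higher and 1 lower against Sham, where 16.8% and 14.1% of genes were.

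**Figure D4:**
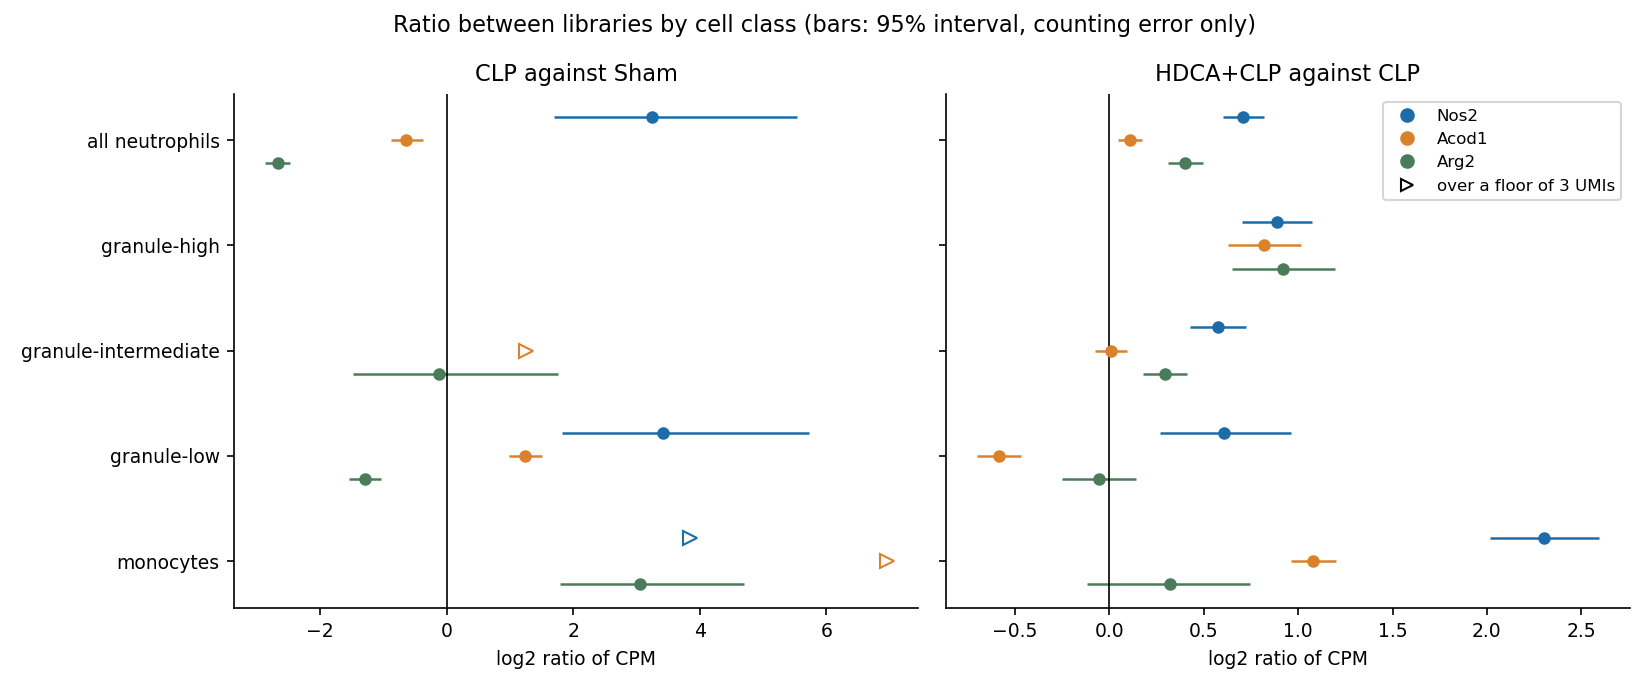
Log2 ratio of CLP to Sham and of HDCA+CLP to CLP for Nos2, Acod1 and Arg2 in all neutrophils, the 3 granule classes and monocytes, with 95% counting intervals and open triangles where Sham was at 0 and set to the floor of 3 UMIs. Where CLP did not exceed that floor no symbol is drawn. For CLP against Sham this leaves out all granule-high values and Nos2 in granule-intermediate cells. Arg2 lies at -1.29 in granule-low neutrophils and 3.05 in monocytes for CLP against Sham, and Acod1 at -0.59 and 1.08 in the same classes for HDCA+CLP against CLP.

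Detection of 1 member in the same cell as another was compared in thinned cells of 1 class and library, so that equal numbers of UMIs were drawn from each cell. Acod1 and Arg2 were found together in granule-intermediate neutrophils. In CLP 26.4% (20.7 to 32.7) of cells with Arg2 also had Acod1, against 12.2% (10.8 to 13.6) of cells without, and in HDCA+CLP 23.9% (19.97 to 28.2) against 13.02% (11.9 to 14.2). Nos2 and Acod1 were found together beyond counting error in HDCA+CLP, with Acod1 in 21.2% (16.4 to 26.6) of cells with Nos2 and 13.7% (12.6 to 14.9) of cells without, where CLP had 15.2% and 13.4%. Nos2 and Arg2, which compete for arginine, were neither enriched nor depleted in each other's cells beyond counting error: Nos2 was found in 5.45% of CLP cells with Arg2 and 5.13% of those without, and in 8.28% and 6.48% in HDCA+CLP.

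In granule-low neutrophils of CLP 59.6% (48.6 to 69.8) of cells with Arg2 and 44.0% (38.8 to 49.3) of those without had Acod1, and these intervals met. In HDCA+CLP the shares were 33.7% and 29.9%, and in Sham 20.2% and 19.2%. Among monocytes of HDCA+CLP Nos2 was found in 16.4% (8.15 to 28.1) of cells with Acod1 and 4.11% (1.90 to 7.66) of cells without. In CLP monocytes the shares were 4.39% and 2.53%. The intervals of HDCA+CLP monocytes did not overlap, those of CLP monocytes did, and the difference between the libraries was not tested.

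**Figure D5:**
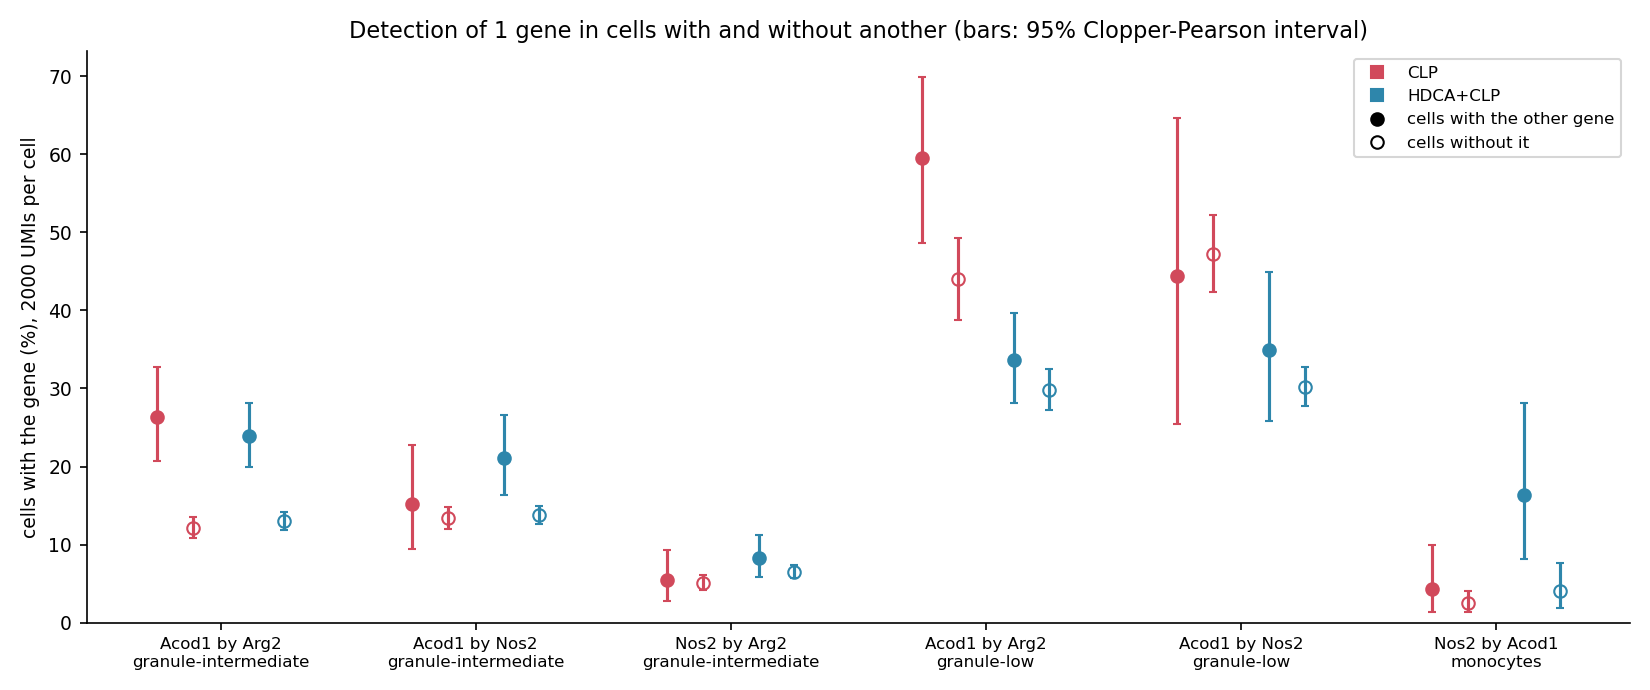
Share of cells (%, 95% exact binomial intervals) with a UMI of one gene among cells with and without a UMI of another, in thinned granule-intermediate and granule-low neutrophils and monocytes of CLP and HDCA+CLP. Acod1 was found in 26.4% of CLP granule-intermediate neutrophils with Arg2 and 12.2% of those without, and Nos2 in 16.4% and 4.11% of HDCA+CLP monocytes with and without Acod1.

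Genes that accompanied a member were chosen in CLP cells, as the 5 with the highest lower bound of the ratio between cells with and without the member, and were then measured again in HDCA+CLP, which the choice had not used. Granule-intermediate neutrophils with Acod1 had more of the chemokines Ccl3 and Ccl4 and of the cytokine Il1b, with log2 ratios in HDCA+CLP of 3.52, 5.004 and 2.95 after 4.10, 4.20 and 3.07 in CLP. Cells with and without Acod1 had like depth there, at medians of 7543 and 7710 UMIs. Cells with Arg2 had log2 ratios in HDCA+CLP of 2.23 for Ccl4, 1.28 for Cxcl3 and 1.24 for Ccl3. Cells with Nos2 differed less, with 0.46 for Il1b, 0.59 for the granule protein gene Olfm4 and 0.86 for the matrix protein gene Thbs1. Ccl3, Ccl4, Cxcl3 and F10 were among the 5 genes of both Acod1 and Arg2 cells, and Il1b among those of both Acod1 and Nos2 cells.

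Monocytes with Acod1 in HDCA+CLP had more Ccl7, a monocyte-attracting chemokine (127 against 0.465 CPM in those without), Ptx3, a secreted pattern recognition protein (303 against 4.19 CPM), Edn1, the endothelin 1 gene (216 against 5.12 CPM), and Csf3, the granulocyte growth factor (102 against 4.19 CPM). Their log2 ratios were 8.10, 6.18, 5.40 and 4.602, after 2.64, 1.78, 1.82 and 1.97 in CLP. Monocytes with Nos2 were deeper in CLP (medians of 18121 and 13888 UMIs), and of their 5 genes only Top2a, a cell division gene, and Cxcl3 kept intervals above 0 in HDCA+CLP, at 2.02 and 1.38. The NK cell marker Gzma stood at 1.76 in CLP and 0.12 (-1.64 to 1.57) in HDCA+CLP, and Cenpf at 1.77 and 0.51 (-0.10 to 1.09). Saa1 turned from 1.90 to -1.54 (-3.46 to -0.09). Monocytes with 4 or more Ass1 UMIs, compared with those without any, had more Elane and Prtn3, granule proteases of early myeloid cells, at log2 ratios of 3.36 and 2.02 in HDCA+CLP. These Ass1 cells were also deeper, at medians of 16408 against 7755 UMIs, and the part of depth was not tested. The genes of Arg1 cells in CLP, led by Cxcl3 (4.05) and Ccl7 (3.32), stood at -2.68 and -3.05 in the 8 Arg1 cells of HDCA+CLP.

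Genes of the surrounding pathways were taken from 4 lists. In CLP against Sham monocytes, 2 of 12 measured genes of the nitric oxide cofactor and citrulline list were 2-fold higher and 1 lower, where 10.3% and 17.2% of all genes were, with a median log2 ratio of 0.21 against -0.21 over all genes. Gch1, the first and rate-limiting enzyme of the Nos2 cofactor tetrahydrobiopterin, was at 93.4 CPM in CLP and 45.6 in Sham (1.03), and Pts, the next enzyme of that route, at 37.6 and 76.6 (-1.03). HDCA+CLP monocytes had Gch1 at 108 CPM (0.21 over CLP) and Asl, the enzyme after Ass1, at 29.5 against 39.5 CPM (-0.42). None of the 12 passed 2-fold between HDCA+CLP and CLP monocytes, where 2.12% of all genes were higher and 2.6% lower. Nos2 itself was at 2.30 there. In neutrophils 3 of 12 were higher and 2 lower in CLP than in Sham, Asl among the higher (23.9 and 8.35 CPM, 1.51), where 11.9% and 22.1% of all genes were.

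The list of arginine transport, ornithine and polyamine genes had 7 of 21 measured genes higher and 2 lower in CLP than in Sham monocytes, where 10.3% and 17.2% of all genes were, with a median of 0.41 against -0.21. Odc1, which makes putrescine from ornithine, was at 65.6 and 10.3 CPM (2.67, 2.15 to 3.24), and Srm, spermidine synthase, at 53.0 and 16.7 CPM (1.67). Sat1, which starts polyamine breakdown, was lower (379 and 1312 CPM, -1.79). Neutrophils had 1 of 16 higher and 6 lower, where 11.9% and 22.1% of all genes were, with a median of -0.63 against -0.22 over all genes. Lower there were Smox, spermine oxidase (16.4 and 89.4 CPM, -2.45), and Oat, ornithine aminotransferase (6.94 and 27.6 CPM, -1.99). In granule-low neutrophils alone 5 of 13 were higher and none lower, where 20.5% and 13.2% of all genes were, with a median of 0.61 against 0.05 over all genes. Between HDCA+CLP and CLP monocytes none of 21 was 2-fold higher and 1 was lower, where 2.12% and 2.6% of all genes were. None of 22 passed 2-fold in neutrophils, where 2.09% of all genes were higher and 1.41% lower.

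Of the itaconate and Krebs cycle list, 4 of 34 measured genes were higher and 2 lower in CLP than in Sham monocytes, where 10.3% and 17.2% of all genes were, with a median of -0.09 against -0.21. In granule-low neutrophils 11 of 27 were higher and 1 lower, where 20.5% and 13.2% of all genes were, with a median of 0.65 against 0.05. In monocytes of CLP and Sham Hmox1, haem oxygenase and a target of the Nrf2 pathway, was at 689 and 95.3 CPM (2.85, 2.68 to 3.03). In the same monocytes Slc13a3, a dicarboxylate carrier, was at 17.4 and 1.33 CPM (3.71), and Irgm1, an interferon-induced GTPase, at 96.2 and 30.3 CPM (1.67). In HDCA+CLP monocytes the levels were lower than in CLP for Slc13a3 (2.05 CPM, log2 ratio -3.09, -4.32 to -2.08), Hmox1 (322 CPM, -1.10, -1.19 to -1.01) and Irgm1 (57.7 CPM, -0.74), while Acod1 was higher (1.08). The 2 of 34 genes past 2-fold lower there were Slc13a3 and Hmox1, and none was higher, where 2.6% and 2.12% of all genes were. In neutrophils Irgm1 was at 5.85, 67.6 and 46.1 CPM in Sham, CLP and HDCA+CLP.

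The list of inducing receptors and factors had 4 of 28 genes higher and 6 lower in CLP than in Sham monocytes, where 10.3% and 17.2% of all genes were, with a median of -0.25 against -0.21. Cd14, the lipopolysaccharide co-receptor, was at 296 and 79.0 CPM (1.91), and Hif1a, the hypoxia factor, at 167 and 61.6 CPM (1.44). Ifngr1, a chain of the interferon gamma receptor, was at 169 and 703 CPM (-2.05), and Klf4 at 78.8 and 309 CPM (-1.97). None of the 28 passed 2-fold between HDCA+CLP and CLP monocytes, where 2.12% of all genes were higher and 2.6% lower. The members and these lists were chosen with earlier results of the data known, so the counts describe the libraries.

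Marker genes of other cells moved with the groups in monocytes. Summed over the 7 non-classical monocyte markers the level in Sham was 1295 CPM, that in CLP 182 and that in HDCA+CLP 199, and over the 5 early myeloid markers 40.6, 391 and 563 CPM. The summed neutrophil markers were 1718, 7810 and 10515 CPM in the same order, against 394980 CPM in CLP neutrophils. In T cells, which give the free RNA level, they summed to 96.5, 3162 and 4628 CPM, so they differed between the groups there too. The 9 macrophage markers summed to 2854, 525 and 231 CPM, with C1qa, C1qb and C1qc at 0 in Sham monocytes and Apoe alone at 2716 CPM there. Beside these, the monocyte log2 ratios of CLP to Sham in classical-marker cells alone were 3.38 for Nos2 and 6.34 for Acod1. Sham was at 0 for both and set to the floor of 3 counts. The part of these cells in the other results was not tested.

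Marker genes of other cells also differed between the granule-low neutrophils of the libraries. In the order Sham, CLP and HDCA+CLP the 5 erythroid markers summed to 5.18, 1162 and 2083 CPM. The early myeloid markers stood at 8.28, 166 and 63.8 CPM, the NK cell markers at 3.11, 128 and 99.1, and the non-classical monocyte markers at 71.5, 357 and 417. Without the granule-low cells that held 3 or more monocyte marker UMIs the log2 ratios of CLP to Sham were 3.29 for Nos2, -1.17 for Arg2 and 1.30 for Acod1. The part of the erythroid, early myeloid and NK cell markers in these results was not tested.

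Over 21 points (7 classes in 3 libraries) the genes closest to each member were ranked by Pearson's r of log2(CPM + 10) among 7420 genes, as a description of points that share libraries and depth. Closest to Nos2 were Oas1g (0.97), Tnf (0.93) and Rab20 (0.91). Closest to Acod1 were Fth1 (0.95), Cxcl2 (0.94) and Cd80 (0.93), and to Arg2 Plk3 (0.98), Ppp1r3d (0.94) and Clec4d (0.94). Closest to Arg1 were C1qc, Timp1 and Htra1 (0.98 each), to Ass1 Mthfd2 (0.88), Ext1 (0.88) and Tubb2a (0.86), and to Slc7a2 Elane (0.97), Ms4a3 (0.93) and Cenpm (0.90). Arg1 reached at most 8.21 CPM and Slc7a2 at most 5.13 CPM, both under the 10 added. Arg1 was highest in monocytes of CLP and HDCA+CLP, with 90 and 22 UMIs, and Slc7a2 in these and in CLP granule-low neutrophils. The r of Arg1 and Slc7a2 with any gene therefore rests on few of the 21 points. Among the members themselves Nos2 and Acod1 had 0.86, Arg2 and Acod1 0.80, Arg1 and Ass1 0.80, and the 2 arginases Arg1 and Arg2 -0.03, the lowest but 1 of the 15 pairs, after Arg2 with Ass1 (-0.17).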

How the data were processed

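Blood cells were measured in 3 libraries, 1 for each group, with 10x Chromium 3′ v3 chemistry and paired reads of 150 bp, per the labels' protocols. The deposited matrices hold raw UMI counts per gene and barcode, made with Cell Ranger 5.0.1 per the file headers. Seurat 4.0.6, R 4.0.3 and the build mm39 are listed too, per the submitters' processing notes. No cell types came with the counts. Sham had 7159 barcodes and 42427093 UMIs, CLP 11387 and 87031721, and HDCA+CLP 12205 and 95178381. Depth limits the precision most in Sham, with 230 neutrophils and 281 monocytes.

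Cells needed at least 500 UMIs, 200 genes and at most 10% mitochondrial UMIs, which left 6891, 10840 and 12023. Doublets were scored within a library (2 simulated doublets for each cell, 2000 variable genes, 30 principal components), and the highest 0.8% per 1000 barcodes were removed (395, 987 and 1174). UMIs were summed by class and divided by the class total to give CPM. Intervals are exact Poisson for CPM, Clopper-Pearson for shares and conditional binomial for ratios, and cover counting error only. A count of 0 was set at a floor of 3 over the class, and genes at or below it in both libraries were left out. In levels weighted by granule class a count of 0 stayed at 0. Ratios were tested on counts simulated with independent UMIs, which the intervals also assume. That test could not show the effect of UMIs gathered in single cells. Python 3.11.15, NumPy 2.4.6, SciPy 1.17.1, pandas 2.3.3, scikit-learn 1.9.0 and matplotlib 3.10.9 were used.

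The members and lists were chosen with earlier results of these data known. All members are named in every class; of each list, the 3 genes with the largest difference in each direction by the interval bound nearest 0 could be named. Accompanying genes needed 20 UMIs and 50 CPM in positive cells, and genes like a member 50 UMIs and 20 CPM. Alternatives changed the cell filters, doublet removal, class limits, scaling, thinning and floor of UMIs measured. Promoter sequences are from RefSeq for GRCm38.p6; no other coordinates were used.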

Additional observations from a re-analysis of the deposited data

Results flagged for a closer look

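Some genes differed in opposite directions in 2 classes under the same comparison, with counting intervals on either side of 0; each class is 1 library a group, and the difference was not tested. For CLP against Sham the log2 ratio of Arg2 was 3.05 in monocytes and -1.29 in granule-low neutrophils, and that of Ass1 was 3.44 in monocytes and -0.85 in T cells. For HDCA+CLP against CLP that of Acod1 was 1.08 in monocytes and -0.59 in granule-low neutrophils, and that of Ass1 was 1.38 in B cells and -0.85 in granule-low neutrophils, where 1 B cell held 14 of 28 UMIs. For HDCA+CLP against Sham that of Arg2 was 3.37 in monocytes and -1.35 in granule-low neutrophils, and that of Ass1 was 3.56 in monocytes and -0.93 in T cells.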

How the results depend on the processing

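Of 285 recomputed values of the 20 member ratios in neutrophils and monocytes, 246 stayed within the counting interval, 35 moved beyond it and 4 turned in direction; over all 52 member ratios 451 of 532 values stayed, 71 moved and 10 turned. The values that moved or turned follow as log2 ratios. With doublets kept, HDCA+CLP against CLP neutrophils gave 0.57 for Nos2 and -0.26 for Ass1, CLP against Sham monocytes 4.38 for Nos2, 7.23 for Acod1, 2.002 for Slc7a2 and -2.27 for Arg1, Arg1 in HDCA+CLP against Sham monocytes -2.64, and Ass1 in granule-intermediate cells of HDCA+CLP against CLP -0.12. Ass1 in neutrophils of HDCA+CLP against CLP was -0.28 with an S100 limit of 3% and 1.10 with 10%, and of CLP against Sham -1.87 with 10%, where Acod1 in monocytes was 8.55. Without neutrophils holding 3 or more monocyte UMIs Ass1 was -2.27 and -0.43 in all neutrophils (CLP against Sham, HDCA+CLP against CLP), -0.58 in granule-low cells of CLP and -1.27 of HDCA+CLP against Sham, and -0.55 in granule-intermediate cells of HDCA+CLP against CLP. With means over cells, HDCA+CLP against CLP gave 0.0127 for Acod1 in neutrophils and 0.25 for Arg1 and 0.93 for Acod1 in monocytes. With median-of-ratios scaling, which sets to 0 a median gene that lay at -0.38 in neutrophils and -0.26 in monocytes for CLP against Sham, Arg2 and Acod1 were -2.29 and -0.26 in neutrophils and Nos2 and Acod1 4.11 and 7.22 in monocytes; with the 5 class genes out of the total, Arg2 and Acod1 were -2.36 and -0.32 in neutrophils.

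The next alternatives were chosen after seeing the data. With granule classes weighted as in CLP, CLP against Sham neutrophils gave 6.88 for Nos2, -0.32 for Arg2, 2.99 for Acod1 and 4.08 for Ass1, and Acod1 was -0.0265 for HDCA+CLP against CLP and 2.96 against Sham. In these weighted values Sham granule classes without a UMI entered as 0 and not at the floor. Without the 5 richest cells, CLP against Sham monocytes gave 3.33 for Nos2, 1.53 for Arg1, 6.79 for Acod1, 3.91 for Ass1 and -0.88 for Slc7a2, and HDCA+CLP against CLP -1.90 for Arg1 and 0.85 for Acod1. Without C1q cells Arg1 was 2.52 in CLP against Sham, without early myeloid cells Acod1 was 7.14, and 0.79 in HDCA+CLP against CLP, and in classical-marker monocytes of CLP against Sham Nos2 was 3.38, Arg1 2.57 and Acod1 6.34. No paired analysis was possible because each group is 1 library. Ratios with Sham at 0 move with the floor, and Sham had 20 neutrophils outside the granule-low class.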
